A study of Mus musculus with 8 samples.

Results

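The matrix metalloproteinases (MMPs) and their tissue inhibitors (TIMPs) were followed in mouse growth plate cartilage through 10 genes, Mmp2, Mmp3, Mmp9, Mmp10, Mmp14, Mmp16, Timp1, Timp2, Timp3 and Timp4. A probe was assigned to a member when the transcript named for it in the scanner files was a RefSeq transcript of that gene. The 10 genes had 15 of the 56605 probes on the array. Of these genes, 8 were well above background on all 4 arrays of both genotypes and entered the comparison of 23105 features, with 12 probes kept. Mmp3 and Timp4 were well above background on 1 of 8 arrays each and were not tested.

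RNA came from the femoral growth plates of 8 littermate mice aged 12 days, 4 labelled Cre and 4 labelled CreTW, with 100 ng of RNA per mouse on an Agilent array of its own, read in 1 colour. What Cre and CreTW stand for is not written in the labels. From general knowledge of the study, both groups carry a Cre recombinase driven by the promoter of the type II collagen gene, which is active in chondrocytes, and the CreTW mice in addition express in those cells a mutant form of Twinkle, the helicase of mitochondrial DNA. Cells of the growth plate in whose lineage this promoter was never active are therefore not direct targets of the transgene. The RNA was taken from the whole cartilage piece. By its title, the study asks how loss of respiratory chain function in cartilage bears on growth.

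MMPs are zinc-dependent proteases that cut collagens, proteoglycans and other proteins outside the cell, and most are made as inactive proenzymes. TIMPs block their active sites, and TIMP2 also takes part in the activation of pro-MMP2 by the membrane-anchored MMP14. In the growth plate these enzymes are known for the removal of cartilage matrix at the front where vessels and bone replace it, a task in which MMP9 of osteoclasts and other invading cells has a large share.

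All 12 listed chondrocyte markers were measured, with a summed log2 level of 11.19 to 11.97 on Cre arrays and 11.13 to 11.60 on CreTW arrays. Markers of osteoclasts, osteoblasts, fibroblasts, endothelium, blood cells and skeletal muscle were measured as well, so the RNA was that of a mixed tissue. The share of probes well above background was 45.4% to 57.9% per array. Values below are log2 signals relative to the array's 75th percentile signal, which was 144 to 187 scanner units. They compare 1 probe between arrays and are not a scale on which genes can be ranked. A difference is the log2 value of CreTW minus Cre with its SE over 4 mice of each genotype. The adjusted p-values (limma, Benjamini-Hochberg) span all 23105 features, with a threshold of 0.05.

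No member passed that test. Of the 8 members tested 0 were called, where 0.346% of all features were. Without adjustment 4 of the 8 (Mmp2, Mmp16, Timp2 and Timp3) had p under 0.05, where 10.7% of all features did. These were 3 with CreTW higher (5.93% of all features) and 1 with CreTW lower (4.8%). The genotypes did not overlap for 3 of the 8, against 6.7% of all features. Among them, Timp2 and Timp3 had CreTW higher (3.89% of all features) and Mmp16 had CreTW lower (2.81%). The median difference over the 8 was 0.00 and the median size of a difference was 0.31, against -0.01 and 0.13 over all features. The members were chosen with earlier results of these data known, so these counts are no test of them as a set. The plot of the members by array shows each value.

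**Figure D1:**
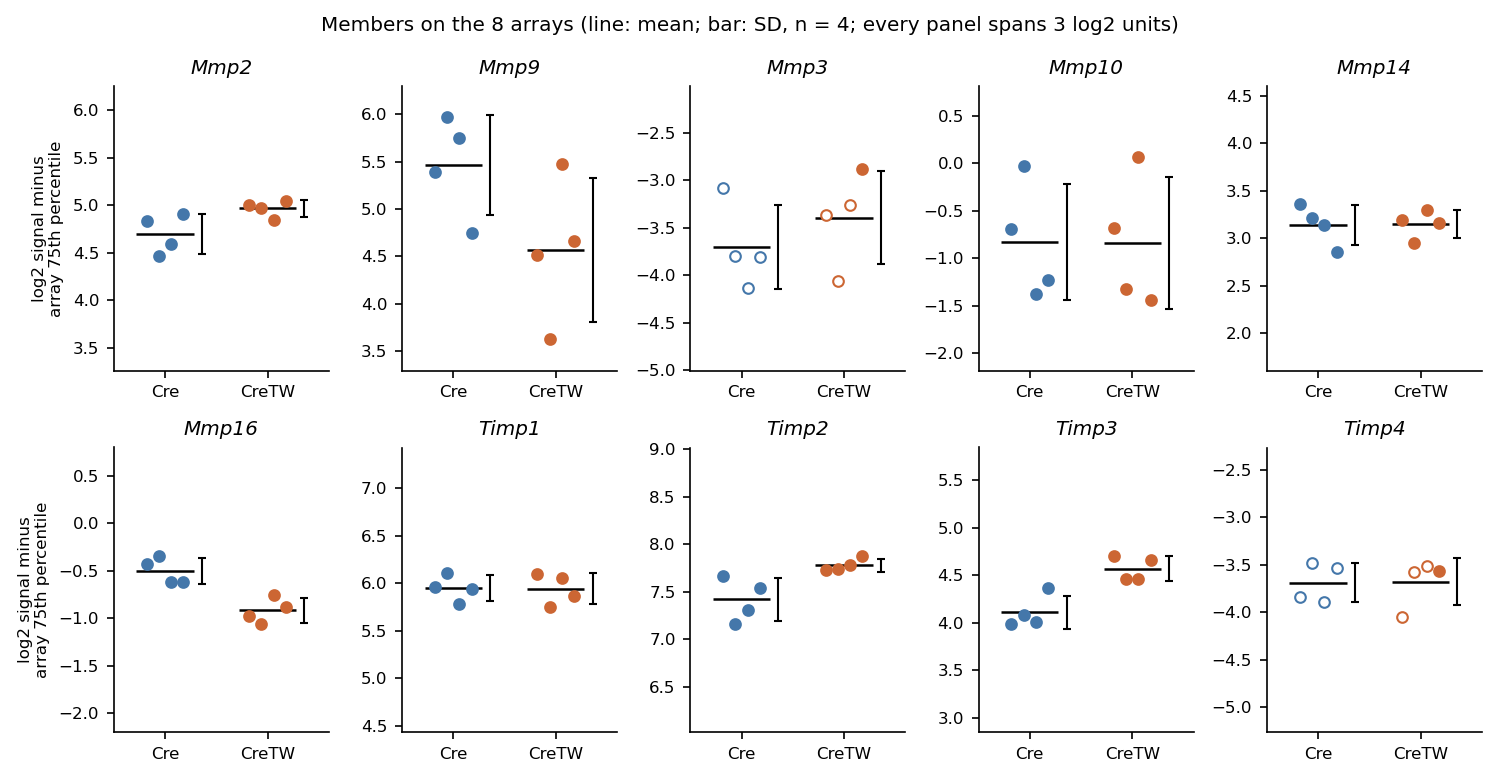
Each panel plots 1 gene, with the log2 signal minus the array's 75th percentile on the vertical axis and the 2 genotypes on the horizontal axis; points are arrays, open points were not well above background, lines are means and bars are SDs (n = 4). Timp2, Timp3 and Mmp16 do not overlap between genotypes, Mmp9 spans 3.63 to 5.96, and Mmp3 and Timp4 were well above background only on CreTW replicate 4.

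Mmp9 and Mmp2 are the gelatinases, which cut denatured collagens and collagen IV. The Mmp9 values on the Cre arrays were 5.39, 5.96, 5.74 and 4.75 for replicates 1 to 4. On the CreTW arrays they were 4.51, 3.63, 5.47 and 4.67. Cre replicate 4 lay with the CreTW arrays and CreTW replicate 3 with the Cre arrays, so the genotypes overlapped. The mean was 5.46 ± 0.53 (SD) in Cre and 4.57 ± 0.76 in CreTW, a log2 difference of -0.89 ± 0.39 (limma adjusted p = 0.468), with a 95% interval of -1.79 to 0.00. Its other probe gave -0.86 ± 0.41. The difference was -0.58 without CreTW replicate 2 and -1.19 without CreTW replicate 3. Within the 2 rows of the slide, each with 2 arrays of either genotype, it was -1.61 in row 1 and -0.18 in row 2, and the difference between rows was not tested.

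Osteoclast markers moved with Mmp9. Their list holds 14 genes without Mmp9, among them Acp5, the tartrate-resistant phosphatase, and Ctsk, the collagen-cutting cathepsin K, and 13 were measured, the exception being Calcr, well above background on 1 array. All 13 had negative differences (median -0.81), and 0 were called by limma, with 1 at unadjusted p under 0.05 (Tcirg1, a proton pump subunit, at -0.68 ± 0.28). Lower in CreTW at such a p were 4.8% of all features. The summed log2 level of the list was 8.74 to 10.21 on Cre arrays and 8.19 to 10 on CreTW arrays. A score per array, which averages the genes of the list after each is centred over the 8 arrays, was 0.67, 0.74, 0.62 and -0.63 on Cre replicates 1 to 4 and -0.54, -1.17, 0.36 and -0.05 on CreTW replicates 1 to 4. Cre replicate 4 and CreTW replicate 3 thus stood on the side of the other genotype here too.

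Over the 8 arrays Mmp9 and the osteoclast score had a Pearson r of 0.947 (exact permutation p = 0.000942, adjusted 0.0547) and a Spearman rho of 0.857 (exact permutation p = 0.0107, adjusted 0.124). Neither passed 0.05 after adjustment over the 116 relations computed, 88 of members with marker scores and 28 of member pairs, and 0 of the 116 did. Without Cre replicate 4 and CreTW replicate 2, the arrays farthest from the median score, r was 0.929, and with each genotype centred on its own mean it was 0.931. The osteoblast and osteocyte score (r = 0.906, exact permutation p = 0.00322, adjusted 0.0935; rho = 0.857, exact p = 0.0107, adjusted 0.124) and the endothelial score (r = 0.877, exact p = 0.00635, adjusted 0.111; rho = 0.833, exact p = 0.0154, adjusted 0.149) ran close to Mmp9 as well, with r of 0.905 and 0.860 without the same arrays. With each genotype centred, r was 0.94 with both of these scores. The adipocyte score (3 genes) had r = 0.8 with Mmp9 (exact permutation p = 0.0166, adjusted 0.12). That r was 0.892 without Cre replicates 3 and 4 and 0.721 with each genotype centred. The macrophage score had r = 0.773 (exact permutation p = 0.0238, adjusted 0.14), 0.691 without Cre replicate 4 and CreTW replicate 2 and 0.803 centred. The hypertrophic chondrocyte score had r = 0.652 (exact permutation p = 0.079, adjusted 0.238), 0.926 without those arrays and 0.322 centred. Differences were negative for all 8 osteoblast and osteocyte markers measured and for 9 of 10 endothelial markers, where 48.4% of all features were positive. By limma 0 of them were called, against 0.346% of all features. In each of these lists 1 gene was lower at unadjusted p under 0.05 (Ifitm5 and Cldn5), against 4.8% of all features. Each slide row held 4 arrays, too few for a value within rows. In RNA of a whole tissue, fewer cells of a type and less RNA per cell cannot be told apart, and the part of these cells in the Mmp9 difference was not tested.

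**Figure D2:**
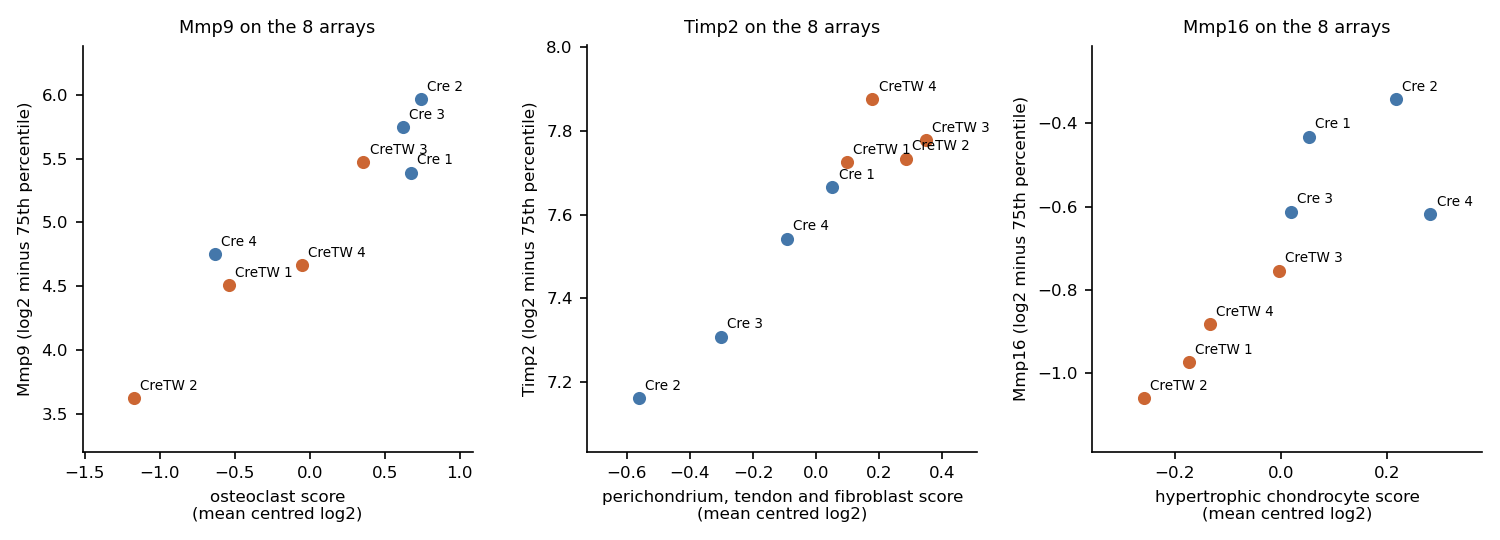
Each panel plots the log2 value of a member (vertical axis) against a marker score in log2 units (horizontal axis), with 1 point per array labelled by genotype and replicate. Mmp9 and the osteoclast score were lowest on CreTW replicate 2, Timp2 and the perichondrium, tendon and fibroblast score were lowest on Cre replicate 2, and Mmp16 and the hypertrophic chondrocyte score were lowest on CreTW replicate 2.

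Mmp2 had values of 4.84, 4.46, 4.59 and 4.91 on the Cre arrays and 5.002, 4.97, 4.85 and 5.05 on the CreTW arrays. The Cre arrays spread more widely, and the lowest CreTW value lay below the highest Cre value. The mean was 4.70 ± 0.21 (SD) in Cre and 4.97 ± 0.09 in CreTW, a difference of 0.27 ± 0.12 (limma adjusted p = 0.466). It was 0.34 in slide row 1 and 0.20 in row 2. Across the 12542 other named genes well above background on all arrays, the pattern most like that of Mmp2 over the 8 arrays was that of Reck (Pearson r = 0.995), followed by Cpxm2 (0.990), and 57 genes had r above 0.95. Reck values were 3.48, 2.99, 3.21 and 3.59 on the Cre arrays and 3.75, 3.66, 3.50 and 3.82 on the CreTW arrays.

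Mmp3 and Mmp10 encode stromelysins, broad proteases that cut proteoglycans and activate other MMPs. By the RefSeq gene order on GRCm38.p6 they lie close together in the MMP cluster of chromosome 9, with only Mmp1a between them. Only CreTW replicate 4 detected Mmp3 above background, at -2.88. Its values on the other arrays, -4.14 to -3.09, give no order, so no fold is given. Mmp10 was measured on all arrays, at -0.69, -0.03, -1.37 and -1.23 in Cre and at -0.68, -1.32, 0.07 and -1.44 in CreTW. Each genotype held 1 array near 0, Cre replicate 2 and CreTW replicate 3, and 3 lower ones. The difference was -0.01 ± 0.39 (limma adjusted p = 0.992), with a 95% interval of -0.91 to 0.88. It was -0.64 in slide row 1 and 0.61 in row 2, with the difference between rows not tested. The SD of Mmp10 over the 8 arrays, 0.61, was larger than that of 94.6% of features, and that of Mmp9, 0.77, larger than that of 97.4%.

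The upstream sequences of these neighbours are shown because the pair shares the same short elements although Mmp10 was measured on all arrays and Mmp3 was not. They are the 250 bases before the RefSeq start (GRCm38.p6), 5′ to 3′ on the gene's strand, and capitals mark matches to TGANTCA, the element bound by AP-1 factors, and TATAAA. Mmp3 spans chr9:7445572-7445821 and Mmp10 spans chr9:7502092-7502341, both on the plus strand.
Mmp3: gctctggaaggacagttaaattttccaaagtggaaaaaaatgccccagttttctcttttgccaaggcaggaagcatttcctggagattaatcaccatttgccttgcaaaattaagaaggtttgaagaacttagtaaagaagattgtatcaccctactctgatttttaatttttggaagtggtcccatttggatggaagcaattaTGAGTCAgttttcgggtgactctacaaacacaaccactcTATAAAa
Mmp10: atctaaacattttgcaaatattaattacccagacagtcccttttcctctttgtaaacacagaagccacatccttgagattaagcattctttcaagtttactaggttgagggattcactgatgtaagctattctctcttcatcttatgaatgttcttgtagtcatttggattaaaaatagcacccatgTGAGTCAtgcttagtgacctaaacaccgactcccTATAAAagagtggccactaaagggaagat

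The AP-1 letters were TGAGTCA in both, starting 46 bases before the start in Mmp3 and 63 in Mmp10. TATAAA began 7 bases before the start in Mmp3 and 29 in Mmp10. Searched on both strands, TGANTCA was found in the same window of 6.75% of 32851 RefSeq promoters and TATAAA in 12.4%. GGGCGG, the GC box of Sp1-type factors, was in neither of these promoters and in 32.7% of all. A match describes the letters and is not a measured site. Of 7 listed subunits of AP-1, 6 were measured and 0 were called by limma (0 at unadjusted p under 0.05), and Fosl1 was well above background on no array. Their differences went both ways, from -0.66 ± 0.58 for Fos, whose arrays ran from 0.75 to 3.43, to 0.44 ± 0.73 for Fosb. Jund was at 0.20 ± 0.20, Jun at -0.01 ± 0.31, Fosl2 at -0.10 ± 0.10 and Junb at -0.13 ± 0.24.

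Mmp14 and Mmp16 encode membrane-type MMPs, which sit on the cell surface and can activate pro-MMP2. Mmp14 values were 3.36, 3.21, 3.14 and 2.85 on the Cre arrays and 3.19, 2.95, 3.30 and 3.16 on the CreTW arrays, and the genotypes overlapped almost fully. The difference was 0.01 ± 0.13 (limma adjusted p = 0.985), with a 95% interval of -0.28 to 0.30. It was -0.22 in slide row 1 and 0.23 in row 2, and -0.00 with the array median as the scale. Mmp14 ran opposite to the chondrocyte score over the arrays (Pearson r = -0.862, exact permutation p = 0.0064, adjusted 0.111; Spearman rho = -0.762, exact p = 0.0368, adjusted 0.215). Without Cre replicate 4 and CreTW replicate 3 that r was -0.672, and with each genotype centred it was -0.882. This was not the only score it tracked, since r was 0.83 with the endothelial score (exact permutation p = 0.00851, adjusted 0.111; rho = 0.714, exact p = 0.0576, adjusted 0.215) and 0.819 with the osteoblast and osteocyte score (exact permutation p = 0.00928, adjusted 0.111; rho = 0.786, exact p = 0.0279, adjusted 0.215). Without Cre replicate 4 and CreTW replicate 2 these were 0.511 and 0.544, and with each genotype centred 0.870 and 0.884. The macrophage score had r = 0.814 (exact permutation p = 0.0197, adjusted 0.134), 0.00865 without the same arrays and 0.854 with each genotype centred. For the osteoclast score r was 0.75 (exact permutation p = 0.0326, adjusted 0.18), 0.347 without those arrays and 0.9 with each genotype centred.

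Mmp16 was lower on every CreTW array than on any Cre array. Its values were -0.43, -0.34, -0.61 and -0.62 in Cre and -0.97, -1.06, -0.75 and -0.88 in CreTW. The gap between the lowest Cre and the highest CreTW array, -0.62 and -0.75, was similar to the SD within a genotype (0.14 and 0.13). The difference was -0.42 ± 0.10, or 1.33-fold lower in CreTW (limma adjusted p = 0.221). With normexp background correction it was smaller, -0.25. A dimmer probe of Mmp16, well above background on 7 of 8 arrays, gave -0.28 ± 0.16 and overlapped between genotypes. The difference was -0.63 in slide row 1 and -0.20 in row 2, with the difference between rows not tested.

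Hypertrophic chondrocyte markers also lay lower on the CreTW arrays. All 8 genes of that list were measured, 6 had negative differences (median -0.22), and 0 were called by limma, with 1 at unadjusted p under 0.05 (Panx3, a channel protein, at -0.54). Lower in CreTW at such a p were 4.8% of all features. Col10a1, the collagen that defines these cells, had a positive difference of 0.20. The score of the list was 0.05, 0.22, 0.02 and 0.28 on the Cre arrays and -0.17, -0.26, -0.00 and -0.13 on the CreTW arrays, and its summed log2 level, carried by its brightest genes, was 9.21 to 9.51 in Cre and 9.11 to 9.56 in CreTW. Mmp16 followed this score (Pearson r = 0.845, exact permutation p = 0.00957, adjusted 0.111; Spearman rho = 0.857, exact p = 0.0107, adjusted 0.124). Without Cre replicate 4 and CreTW replicate 2 that r was 0.951, and with each genotype centred it was 0.472. The osteoclast score had the same rho with Mmp16 and r = 0.79 (exact permutation p = 0.0238, adjusted 0.140), 0.918 without the same arrays and 0.802 with each genotype centred. For the osteoblast and osteocyte score r was 0.695 (exact permutation p = 0.0632, adjusted 0.221; rho = 0.738, exact p = 0.0458, adjusted 0.215), 0.792 without those arrays and 0.862 with each genotype centred. The endothelial score had r = 0.599 with Mmp16 (exact permutation p = 0.12, adjusted 0.302; rho = 0.595, exact p = 0.132, adjusted 0.274). That r was 0.649 without those arrays and 0.775 with each genotype centred. Within genotypes r was thus higher with the bone cell and endothelial scores than with the hypertrophic one. That gap was not tested. The part of any of these cells in the Mmp16 difference was not tested.

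Timp1, a secreted inhibitor of most MMPs, differed little. It measured 5.96, 6.11, 5.79 and 5.95 in Cre and 6.10, 5.75, 6.05 and 5.87 in CreTW, with full overlap. The difference was -0.01 ± 0.11 (limma adjusted p = 0.986), with a 95% interval of -0.26 to 0.24. Over the arrays Timp1 ran with Mmp10 (Pearson r = 0.835, exact permutation p = 0.0128, adjusted 0.113; Spearman rho = 0.833, exact p = 0.0154, adjusted 0.149). That r was 0.810 without Cre replicate 2 and CreTW replicate 3, and 0.835 with each genotype centred. Its direction turned to 0.09 in slide row 2.

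Timp2, the inhibitor that also bridges MMP14 and pro-MMP2, was higher on every CreTW array than on any Cre array. Its brightest probe gave 7.67, 7.16, 7.31 and 7.54 in Cre and 7.73, 7.73, 7.78 and 7.88 in CreTW. The gap between the highest Cre and the lowest CreTW array was small beside the spread of the Cre arrays, and it closed with the array median as the scale and with quantile normalization, where the difference was 0.28 and no longer had unadjusted p under 0.05 by limma. The mean was 7.42 ± 0.23 (SD) in Cre and 7.78 ± 0.07 in CreTW, a difference of 0.36 ± 0.12, or 1.28-fold (limma adjusted p = 0.344). The other probe gave a smaller difference, 0.15 ± 0.10, with overlapping genotypes.

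Timp3 is the inhibitor that stays bound in the matrix and also blocks ADAM and ADAMTS proteases. Its values were 3.99, 4.08, 4.01 and 4.36 in Cre and 4.70, 4.46, 4.46 and 4.66 in CreTW. Cre replicate 4 lay closest to the CreTW arrays without reaching them. The mean was 4.11 ± 0.17 (SD) in Cre and 4.57 ± 0.13 in CreTW, a difference of 0.46 ± 0.11, or 1.38-fold (limma adjusted p = 0.214), with a 95% interval of 0.20 to 0.72. Its other probe gave 0.53 ± 0.13, also with no overlap. The difference was 0.55 in slide row 1 and 0.37 in row 2, and over the alternatives it ran from 0.37 to 0.55 with adjusted p from 0.086 to 0.999.

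**Figure D3:**
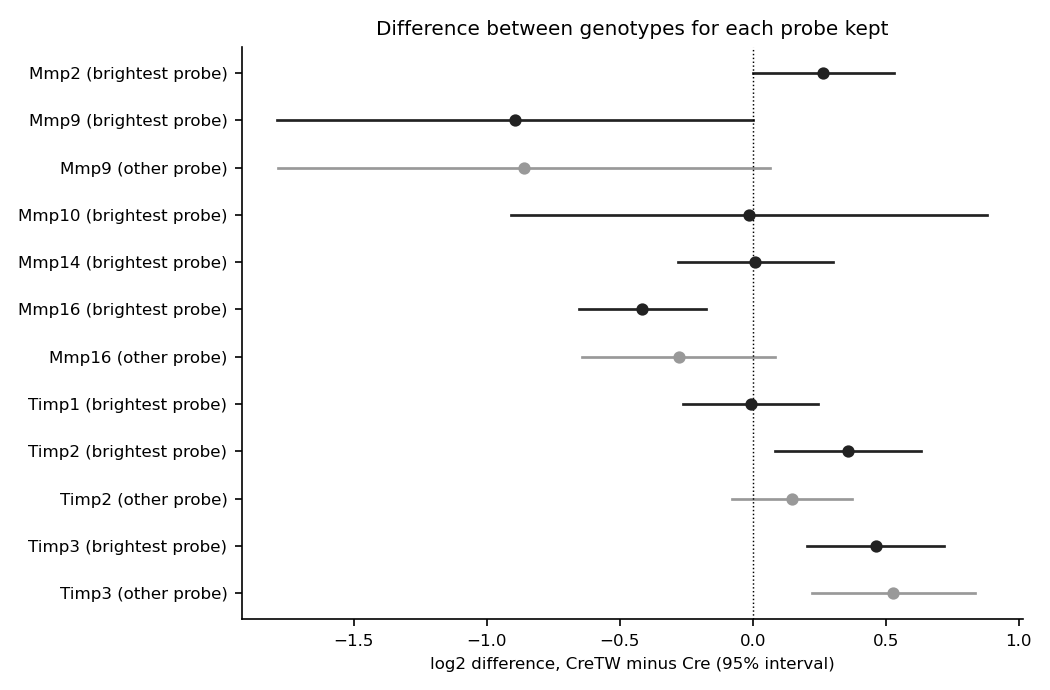
Points are log2 differences, CreTW minus Cre, for each of the 12 probes kept, with 95% intervals from the fit across all 29398 probes kept; black is the brightest probe of a gene and grey the other. Both Timp3 probes lie above 0 with their intervals. Both Mmp9 probes lie below 0, but their wide intervals include 0. The second probes of Timp2 and Mmp16 lie closer to 0 than the brightest.

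Markers of perichondrium, tendon and fibroblasts lay higher on the CreTW arrays, as Timp2 and Timp3 did. All 16 were measured, 13 had positive differences (median 0.29), and 1 was called by limma, Thy1, a surface protein of fibroblasts and other stromal cells, which rose by 0.60 ± 0.08. Called higher were 0.229% of all features. At unadjusted p under 0.05, 6 of the list were higher (5.93% of all features), and 4 were higher without overlap (3.89%). The score of the list was 0.05, -0.56, -0.30 and -0.09 on the Cre arrays and 0.10, 0.28, 0.35 and 0.18 on the CreTW arrays, so that the genotypes did not overlap, whereas its summed log2 level, carried by its brightest collagens, was 10.93 to 11.25 in Cre and 11.02 to 11.34 in CreTW. Skeletal muscle markers were higher as well, with all 17 differences positive and 0 called by limma. Of these, 15 were higher at unadjusted p under 0.05, against 5.93% of all features, and 0 were without overlap. Their summed log2 level was 4.99 to 6.67 in Cre and 5.48 to 9.38 in CreTW. The part of these cells in the differences of Timp2, Timp3 and Mmp2 was not tested.

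Timp2 followed the fibroblast score array by array (Pearson r = 0.95, exact permutation p = 0.000868, adjusted 0.0547; Spearman rho = 0.929, exact p = 0.00223, adjusted 0.124). That r was 0.733 without Cre replicates 2 and 3 and 0.872 with each genotype centred. Mmp2 had r = 0.843 with the same score (exact permutation p = 0.0116, adjusted 0.113; rho = 0.643, exact p = 0.0962, adjusted 0.254), which rests on those arrays, since r was 0.03 without them. With each genotype centred it was 0.67. Mmp2 and Timp2 had r = 0.929 (exact permutation p = 0.0032, adjusted 0.0935; rho = 0.786, exact p = 0.0279, adjusted 0.215), and 0.478 without the same arrays, so this too rests on them. With each genotype centred it was 0.863. The centred values still include those arrays. Timp3 followed the fibroblast score less closely (r = 0.645, exact permutation p = 0.0857, adjusted 0.238; rho = 0.595, exact p = 0.132, adjusted 0.274). That r was 0.301 without Cre replicates 2 and 3 and -0.124 with each genotype centred, so within genotypes Timp3 and the score did not run together. Timp3 had r = 0.797 with Mmp2 (exact permutation p = 0.0146, adjusted 0.113; rho = 0.857, exact p = 0.0107, adjusted 0.124) and 0.803 without those 2 arrays, and 0.549 with each genotype centred.

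**Figure D4:**
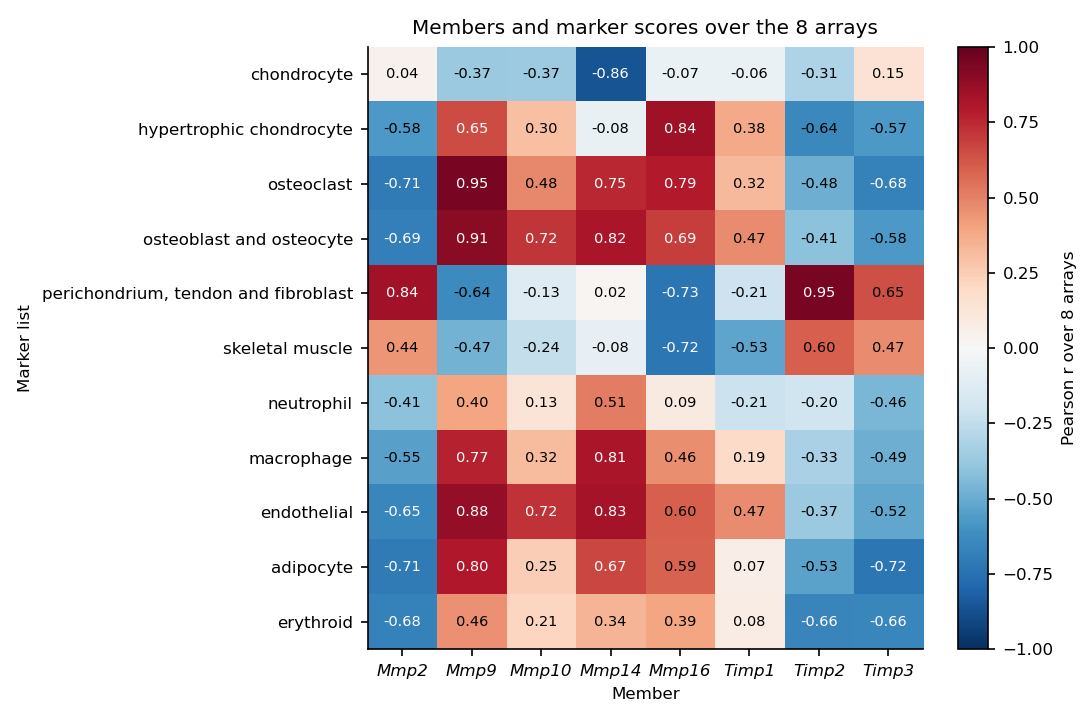
Cells give Pearson r over the 8 arrays between each member tested (horizontal axis) and the score of each marker list (vertical axis), in colour from -1 (blue) to 1 (red). Mmp9 had its highest r with the osteoclast score (0.95), Timp2 with the perichondrium, tendon and fibroblast score (0.95), and Mmp14 its lowest with the chondrocyte score (-0.86).

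Timp4 has a narrower tissue range than the other inhibitors and is best known from heart and fat. Neither of its probes was well above background on a Cre array, and 1 of them was so on CreTW replicate 4 alone, at -3.57. No fold is given, since both genotypes were otherwise below background.

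The upstream sequences of Timp2 and Timp3 are shown because both lay higher on all CreTW arrays. Capitals mark GGGCGG on either strand, and the windows are again the 250 bases before the RefSeq start (GRCm38.p6), 5′ to 3′ on the gene's strand. Timp2 spans chr11:118355412-118355661 on the minus strand and Timp3 spans chr10:86300162-86300411 on the plus strand.
Timp2: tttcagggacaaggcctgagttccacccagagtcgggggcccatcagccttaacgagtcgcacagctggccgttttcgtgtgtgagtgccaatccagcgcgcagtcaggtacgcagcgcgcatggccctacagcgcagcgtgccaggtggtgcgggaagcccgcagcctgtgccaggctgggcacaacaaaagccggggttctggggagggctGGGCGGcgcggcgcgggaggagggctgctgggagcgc
Timp3: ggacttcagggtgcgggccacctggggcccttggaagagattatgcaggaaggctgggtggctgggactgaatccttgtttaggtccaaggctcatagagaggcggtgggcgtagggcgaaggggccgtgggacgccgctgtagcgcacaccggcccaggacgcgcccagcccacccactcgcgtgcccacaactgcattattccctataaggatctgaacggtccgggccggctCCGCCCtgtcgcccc

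These windows hold 68.0% and 65.6% G or C, against a median of 52.4% over all promoters and 37.6% and 37.2% in Mmp3 and Mmp10. Each had 1 GC box, starting 37 bases before the start in Timp2 and 15 in Timp3, and neither TGANTCA nor TATAAA. Of the 7 members with a sequence in the RefSeq table, Timp1 and Mmp14 also had GC boxes (1 and 2) without the other elements, and Timp4 had none of the 3.

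The patterns most like those of the other members over the 8 arrays were as follows, among the same 12542 genes and with Pearson r as the measure. For Mmp9 they were Inafm2 and Cblb (both 0.979), for Mmp10 Fbxo22 (0.975) and Susd6 (0.963), and for Mmp14 Rab8b (0.985) and Ston2 (0.979). For Mmp16 they were Por (0.993) and Slc25a13 (0.978), for Timp1 Elk1 (0.964) and Crcp (0.963), for Timp2 E330021D16Rik (0.990) and Larp6 (0.987), and for Timp3 Ppp1r14a (0.988) and Tmem33 (0.981). Between 3 (Timp1) and 57 (Mmp2) genes had r above 0.95, with 4 for Mmp10. The genes named are the highest of 12542 values over 8 arrays. How many would pass 0.95 by chance was not tested.

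Of 17 further MMP family members 8 were measured, with 0 called by limma, where 0.346% of all features were. At unadjusted p under 0.05 there were 0 of these 8, against 4 of the 8 members and 10.7% of all features. Without overlap between genotypes there were 0, against 3 of the 8 members and 6.7% of all features. The members had been chosen with earlier results of these data known, so these counts do not compare parts of the family. These further MMPs had 3 positive differences and a median of -0.17, where 48.4% of all features were positive. Mmp19, a secreted MMP, had a difference of 0.30 ± 0.21 and Mmp17, a membrane-anchored one, -0.25 ± 0.19. Mmp13, the collagenase of hypertrophic chondrocytes and osteoblasts, was named after its value was seen. It measured 5.66, 5.68, 5.73 and 4.57 in Cre and 5.33, 4.57, 5.97 and 5.01 in CreTW, a difference of -0.19 ± 0.35 (limma adjusted p = 0.874), with Cre replicate 4 and CreTW replicate 2 low as they were for Mmp9.

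Genes that activate, inhibit or clear MMPs had 21 of 25 measured, with 0 called by limma, 3 higher and 1 lower at unadjusted p under 0.05, and a median of 0.04. Of all features, 5.93% were higher and 4.8% lower at such a p. Reck, a membrane-anchored inhibitor of several MMPs, had a difference of 0.36 ± 0.14 (adjusted p = 0.428 by limma). Spock2, a testican proteoglycan, had 0.35 ± 0.11 and was the 1 gene of the list without overlap between genotypes, where 3.89% of all features were higher without overlap.

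Factors that act on transcription of MMPs and TIMPs had 21 of 27 measured, with 0 called by limma, 2 higher and 2 lower at unadjusted p under 0.05, and a median of -0.01. Such a p was found for 5.93% of all features with CreTW higher and 4.8% with CreTW lower. The cytokines Il1a, Il1b, Il6, Osm and Lif were not kept, since each was well above background on at most 3 arrays. Osmr, the receptor subunit for oncostatin M, a cytokine that induces TIMP1, had values of 1.61, 1.36, 1.25 and 1.32 in Cre and 1.73, 1.64, 1.61 and 1.91 in CreTW, a difference of 0.34 ± 0.11 (limma adjusted p = 0.329). Tnfsf11, which encodes the osteoclast-inducing ligand RANKL, had -0.57 ± 0.21 (limma adjusted p = 0.378), with -0.37, -0.49, -0.38 and -1.06 in Cre and -1.13, -1.60, -0.83 and -1.03 in CreTW. Cre replicate 4, low for Mmp9 and the osteoclast markers, was also the lowest Cre array for Tnfsf11. That array was likewise the lowest Cre array for the osteoblast and osteocyte, neutrophil, macrophage, endothelial, adipocyte and erythroid scores. It was the highest Cre array for the chondrocyte and hypertrophic chondrocyte scores.

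All 20 matrix substrates on the list were measured, with 0 called by limma, 3 higher and 0 lower at unadjusted p under 0.05, and a median of 0.02. The 3, each without overlap between genotypes, were Col3a1, a collagen of fibrous tissue (0.39 ± 0.14), Dcn, the small proteoglycan decorin (0.35 ± 0.13), and Vcan, the large proteoglycan versican (0.32 ± 0.11). Col3a1 is also on the fibroblast marker list, so it does not count as separate from that list. Limma adjusted p-values of these 3 lay between 0.365 and 0.381. Of all features, 5.93% were higher and 4.8% lower at unadjusted p under 0.05, and 3.89% were higher in CreTW without overlap.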

How the data were processed

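Per the file headers, Feature Extraction 11.5.1.1 turned the 1-colour scans into background-subtracted processed signals, the intensity unit used here, on an array designed on mm9. GeneSpring 14.9 is named in the series' design text. The authors' log2 table equalled, on each of 8 arrays, the log2 processed intensity minus a constant within 0.01 of the array's 75th percentile (r = 1), with medians of -3.03 to -2.93 and no centring of genes.

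Spots of a probe were averaged without outlier flags. Log2 values minus the array's 75th percentile were used, leaving out probes flagged well above background on fewer than 4 arrays, and the brightest probe stood for a gene. Of 56605 probes, 32994 matched 1 RefSeq symbol (GRCm38.p6, used for names), 0 several and 23611 none. Genotypes were compared with limma 3.58.1 (lmFit, eBayes; 6 residual and 2.52 prior degrees of freedom) in R 4.3.3, tested on simulated data. Correlations used all 40320 orders of the 8 arrays (two-sided). Alternatives were the scaling, background correction, the authors' table, the filter, the probe rule, slide row, replicate number, the variance model and single arrays left out. Normexp was run on the median signal, as the files used here hold no mean signal. The number of arrays limits the precision.

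Members and lists were chosen with earlier results of these data known. Named genes were the members, up to 2 most like each member, and from each pathway list those called, otherwise the 2 with the largest differences among genes well above background on all 8 arrays, plus up to 4 without overlap at unadjusted p under 0.05. A gene that this rule names is not reported here.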

Additional observations from a re-analysis of the deposited data

How the results depend on the processing

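Under all 20 alternatives 0 of the 8 members tested were called by limma, and 0 to 5 had unadjusted p under 0.05. The 0 was within slide row 2, where 1216 of all 23105 features had such a p. The count was 5 without Cre replicate 4, where 3617 features had such a p, and without CreTW replicate 3, where 2595 had. It was also 5 with probes well above background on all arrays, where 2266 of 19391 features had such a p. Mmp2, Mmp9, Mmp16, Timp2 and Timp3 kept their direction in each alternative. Of the member values under the alternatives 14 turned direction and 146 did not. The 14 were of Mmp10, Mmp14 and Timp1. With the array median Mmp14 was at -0.00169, within slide row 1 at -0.215, and within row 2 Mmp10 was at 0.613 and Timp1 at 0.0948. Without single arrays Mmp10 ran from -0.319 to 0.252, Mmp14 from -0.0869 to 0.082 and Timp1 from -0.063 to 0.0558. Members without overlap numbered 2 with the array median (5.98% of all features), 3 to 5 without single arrays (7.89% to 15.6%; 5 without CreTW replicate 3, where the share was 11.3%), 6 within slide row 1 (48.5%) and 4 within row 2 (32.4%), with 2 arrays a genotype. Of all features, 80 were called, 42 to 75 without single arrays (42 without CreTW replicate 4, 50 without Cre replicate 3 and 51 without Cre replicate 2), 27 with no filter on dim probes, 53 with the slide row as a block, and 0 within either row by limma (3164 in row 1 at unadjusted p under 0.05), where 4 arrays leave 2 residual degrees of freedom. With the replicate number as a block 12 were called. Same-numbered arrays' deviations correlated at -0.012, -0.10, 0.31 and -0.03, and 2 of 8 arrays correlated best with their own number. The labels do not say what the numbers stand for, and these values cannot settle whether they pair the arrays. The cause of these changes was not tested. With no filter Mmp3 and Timp4, dim on 7 of 8 arrays, entered the fit with adjusted p = 1 (limma).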
